A study of Mus musculus with 5 samples.

Results

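The nuclear-encoded subunits of the mitochondrial respiratory chain were followed in single myeloid cells sorted from mouse brain. Members were taken by name: each gene whose symbol begins with Nduf, Uqcr, Cox4, Cox5, Cox6, Cox7, Cox8, Atp5 or Sdh, with pseudogenes ending in -ps and gene models named Gm left out. This gave 97 genes of the 52542 genes listed, and 92 of them had at least 1 read molecule in the cells kept. Counts are unique molecular identifiers (UMIs), each standing for 1 captured mRNA molecule tagged near its 3′ end, so that the levels of different genes did not need a correction for transcript length. Capture and read mapping can still differ between genes, and this was not tested. The glycolysis gene Gapdh, for example, had 8 UMIs in all cells kept. A level is the number of UMIs of a gene or group per 10000 UMIs of the cell or of the pooled cells.

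The respiratory chain sits in the inner mitochondrial membrane. Complex I takes electrons from NADH and complex II takes them from succinate. Both pass them by way of ubiquinone to complex III, from there by cytochrome c to complex IV (cytochrome c oxidase), which reduces oxygen, and the proton gradient built along the way drives complex V, the ATP synthase. A few core subunits are encoded in the mitochondrial genome, while the remaining subunits are encoded in the nucleus, translated in the cytosol and imported. Complex II has nuclear-encoded subunits only. Microglia, the resident macrophages of the brain, and macrophages derived from blood monocytes are known to shift between oxidative and glycolytic metabolism, and mature neutrophils are known for few mitochondria and a strong reliance on glycolysis.

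The cells were sorted from brains of DM-hTAU mice at 9 months of age, which carry human tau with mutations linked to frontotemporal dementia under the natural tau promoter. The labels give 1 treatment for every library, aPDL1, an antibody against the checkpoint ligand PD-L1, so no treated and untreated cells were compared. The study's text describes cells sorted from mice given the control antibody IgG2b as well, and the labels do not tell whether any wells hold them. CD45high CD11bhigh cells were sorted one to a well into 5 plates of 384 wells and sequenced by MARS-seq, a plate-based method that reads mRNA 3′ ends. The 5 libraries are called 1 to 5 in the order of their records, a name only, and nothing ties them to separate animals. Every p-value of the main fit rests on a spread between library sums, which may be technical. The fit shares that spread over genes, so a p-value does not measure a gene's own variation between libraries alone. The labels give brain as the tissue, while the extraction text attached to them describes thymus and small intestine, and the marker genes below bear on that point.

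Wells with 1 cell and at least 500 UMIs were kept, leaving 825 cells and 1132493 UMIs. Libraries 1 to 5 held 68, 87, 285, 71 and 314 of these cells, with median depths between 651 and 1267.5 UMIs, so that libraries 3 and 5 carried most of the data. Cells were classed by marker genes that include no member, each class by its summed level of a fixed list: 258 microglia-like, 131 border macrophage-like, 152 MHC class II-high, 64 dendritic cell-like, 80 monocyte-like and 30 neutrophil-like cells, with 110 cells below every threshold (ungated). The thresholds were 500 marker UMIs per 10000 for neutrophils (S100a8, S100a9, Retnlg and others), 250 for MHC class II (such as H2-Aa and Cd74), 100 for microglia (such as P2ry12 and Tmem119), 40 for border macrophages (such as Pf4 and Mrc1), 30 for monocytes (such as Ly6c2 and Ccr2) and 15 for dendritic cells (such as Cd209a and Flt3). Median depth was 964 UMIs in microglia-like cells, 1756 in dendritic cell-like cells and 668.5 in neutrophil-like cells. Each class held its own list at a high level, with 206 microglia marker UMIs per 10000 in microglia-like cells and 3473 neutrophil marker UMIs per 10000 in neutrophil-like cells. The lists were not exclusive. MHC class II markers also stood at 463 per 10000 in dendritic cell-like, 288 in monocyte-like and 262 in border macrophage-like cells. MHC class II-high cells are thus those that passed none of the other lists. Monocyte markers stood at 54.9 in neutrophil-like cells, which were gated first. Lists for erythrocytes, neurons, astrocytes, oligodendrocytes, endothelial cells, mast cells, T or NK cells and B cells each stood at or below 3.49 per 10000 in the 6 gated classes. Microglia markers remained at 49.5 per 10000 in border macrophage-like cells and between 21.3 and 30.5 in the other 4 gated classes, and whether the member levels move with these markers was not tested.

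Members made up 9795 UMIs, or 86.5 per 10000. Complex I, with 38 members, held 33.9% of them, complex V with 15 members held 26.8%, complex IV with 18 members 22.2%, complex III with 8 members 10.1% and complex II with 4 members 4.28%. The other 14 members, assembly factors of complexes I and II and relatives of ATP synthase coupling factor B, held 2.76%. Counts per cell were low: of 6251 occasions on which a member was seen in a cell, 4243 rested on 1 UMI and 790 on 3 or more. Levels of single members in single cells were therefore not compared, and all comparisons below use sums over the cells of a class in a library.

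The single genes spread over a wide range. Cox4i1, subunit 4 of complex IV, led with 357 UMIs, followed by Atp5b, the catalytic beta subunit of the ATP synthase, with 311, Cox6a1 with 307, the ATP synthase alpha subunit Atp5a1 with 300, Cox7a2l, a factor of respiratory supercomplexes, with 290, and Atp5e, the epsilon subunit, with 276. Atp5f1 and Atp5h of the peripheral stalk had 267 and 237 UMIs and Cox8a had 247. The best covered member of complex I was the accessory subunit Ndufa6 with 243 UMIs, that of complex III the hinge protein Uqcrh with 225, and that of complex II the iron-sulphur subunit Sdhb with 151. Atp5c1, the gamma subunit, had 214 UMIs, Cox6c 188, Cox7b 187, Atp5g3 177, Atp5d 170, Cox6b1 161 and Atp5o 158. The remaining complex I members among the 25 best covered, Ndufa2, Ndufb9, Ndufa13, Ndufa3 and Ndufc2, lay between 146 and 171 UMIs, and Uqcrb closed the 25 with 144, level with Uqcrq. These 25 members held 5400 of the 9795 UMIs.

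At the low end, 13 members had between 1 and 19 UMIs in all kept cells and 5 had none. Among the 13 were the assembly factors Ndufaf1, Ndufaf3, Ndufaf5, Ndufaf6, Sdhaf1, Sdhaf3 and Sdhaf4. The 79 members with at least 20 UMIs over the sums tested entered the tests below.

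Several subunits are encoded by more than 1 gene, a common form and forms known from muscle, testis or other tissues, and the common form held nearly all UMIs. Subunit 4 was seen as Cox4i1 alone, with 357 UMIs against 0 of Cox4i2. Subunit 6a gave 307 UMIs of Cox6a1 against 10 of the muscle form Cox6a2, and subunit 6b 161 of Cox6b1 against 0 of the testis form Cox6b2. For subunit 7a, Cox7a2 had 134 UMIs and the muscle form Cox7a1 had 4, while Cox7b had 187 against 0 of Cox7b2. Subunit 8 was seen as Cox8a, with 247 UMIs against 0 of Cox8b and 1 of Cox8c. The genes at 0 could have reached up to 3 UMIs in 1132493 by the limit that a count of 0 allows. Subunit c of the ATP synthase was the exception, since Atp5g3 with 177 UMIs stood beside Atp5g1 with 65 and Atp5g2 with 14. Ndufa4, long counted with complex I and now placed in complex IV, had 50 UMIs and its relative Ndufa4l2 had 0. In all sums and counts by complex given here, Ndufa4 and Ndufa4l2 were kept with complex I, and Cox7a2l with complex IV.

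The promoters of the members were read from RefSeq (build GRCm38.p6), from 250 bases before to 50 bases after the start of each gene, to describe what the genes share in sequence. Of the 97 members, 78 matched, with 83 promoters in all, and 19 had no entry. Nuclear respiratory factor 1 (NRF1) and ETS-family factors such as GABP are known regulators of respiratory chain genes. The NRF1 letters, GCGCA and GCGC with any base between them on either strand, were present in 22 of 83 member promoters (26.5%) and in 4.60% of all 32851 promoters. The ETS letters CCGGAAG were present in 21 of 83 (25.3%) against 8.86%, and the YY1 letters AANATGGCG in 12 of 83 (14.5%) against 2.38%. In contrast, TATAAA was found in 10.8% of member promoters and 13.6% of all promoters. GGGCGG stood at 45.8% against 35.7% and CCAAT at 42.2% against 37.4%. By complex, the NRF1 letters were held by 8 of 35 complex I promoters, 6 of 16 complex V promoters and 1 of 13 complex IV promoters, and the YY1 letters by 7 of 35, 3 of 16 and 0 of 13. Promoters were not matched for base composition, and a match of letters is a description and not a binding site.

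Both the NRF1 and the ETS letters lay in the 250 bases before the start in 3 member promoters, those of Cox6a1 (chr5:115348959-115349208, minus strand), Atp5h (chr11:115419920-115420169, minus strand) and Sdhd (chr9:50603850-50604099, minus strand), and these 3 are shown because they carry the pair in full. Beside them stand Ndufb11 (chrX:20617620-20617869, minus strand) and Ndufb5 (chr3:32736813-32737062, plus strand), which are described further below among the members that passed a test and whose 250 bases hold neither motif. Ndufa13, which also passed a test, likewise holds neither motif and is not shown. Sequences are RefSeq GRCm38.p6, 5′ to 3′ on the strand of the gene. Starts are those of RefSeq. The gene coordinates given below come from the GENCODE annotation, and those of Ndufb5 and Atp5h reach into the bases shown. Capitals mark the NRF1 letters and the ETS letters, the latter as CTTCCGG where they lie on the opposite strand.
Cox6a1: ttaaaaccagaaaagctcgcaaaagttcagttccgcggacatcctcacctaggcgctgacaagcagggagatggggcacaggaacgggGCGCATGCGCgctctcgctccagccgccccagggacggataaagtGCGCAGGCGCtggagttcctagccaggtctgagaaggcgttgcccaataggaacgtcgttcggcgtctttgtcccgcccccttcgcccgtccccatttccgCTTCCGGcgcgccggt
Atp5h: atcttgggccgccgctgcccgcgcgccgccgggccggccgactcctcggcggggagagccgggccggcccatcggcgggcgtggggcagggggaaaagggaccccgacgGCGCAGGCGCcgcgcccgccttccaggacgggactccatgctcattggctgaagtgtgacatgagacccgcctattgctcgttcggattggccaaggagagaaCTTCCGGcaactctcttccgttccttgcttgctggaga
Sdhd: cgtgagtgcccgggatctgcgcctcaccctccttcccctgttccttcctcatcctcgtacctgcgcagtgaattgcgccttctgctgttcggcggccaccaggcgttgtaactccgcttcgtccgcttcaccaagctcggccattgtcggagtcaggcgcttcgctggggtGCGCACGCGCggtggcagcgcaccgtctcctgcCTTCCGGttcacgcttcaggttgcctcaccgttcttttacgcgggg
Ndufb11: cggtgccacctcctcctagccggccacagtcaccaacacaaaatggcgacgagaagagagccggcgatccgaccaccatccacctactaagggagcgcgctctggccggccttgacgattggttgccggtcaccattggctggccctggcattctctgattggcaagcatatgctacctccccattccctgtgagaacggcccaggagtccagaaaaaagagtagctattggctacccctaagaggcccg
Ndufb5: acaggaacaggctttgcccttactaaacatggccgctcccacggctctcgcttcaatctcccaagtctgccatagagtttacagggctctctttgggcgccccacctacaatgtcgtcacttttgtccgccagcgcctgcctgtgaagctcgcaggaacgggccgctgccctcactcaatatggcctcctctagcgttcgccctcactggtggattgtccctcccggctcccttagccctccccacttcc
The Cox6a1 promoter held the NRF1 letters at 2 places, and those of Atp5h and Sdhd at 1 place each. The Ndufb11 promoter held the YY1 letters, which are not capitalised here, and that of Ndufb5 held none of the 3 motifs in these bases.

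Per 10000 of all UMIs, the pooled sum of all members was highest in monocyte-like and dendritic cell-like cells and lowest in border macrophage-like cells. With mitochondrial, marker and the abundant Gm42418 and Gm26917 genes left out of the total, neutrophil-like cells instead stood highest at 163.5, above monocyte-like cells at 145.1 and dendritic cell-like cells at 132.1. On all UMIs the level was 70.4 per 10000 UMIs in border macrophage-like cells (95% exact Poisson interval 66.1 to 74.9), 77.0 in microglia-like cells (74.0 to 80.1), 83.2 in neutrophil-like cells (72.1 to 95.4), 89.9 in MHC class II-high cells (86.2 to 93.7), 101.4 in dendritic cell-like cells (96.2 to 106.9) and 109.3 in monocyte-like cells (103.4 to 115.5). Ungated cells lay at 84.7. The intervals cover counting error only. As sums over the members chosen here, these levels are a description and no test was applied to them.

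The libraries spread more widely than these intervals. In microglia-like cells the level was 93.0, 69.6, 83.7, 88.9 and 67.5 in libraries 1 to 5, a mean of 80.5 ± 11.5 (SD, n = 5). Monocyte-like cells gave 133.1, 177.3, 111.1 and 95.6 in libraries 1, 2, 3 and 5, a mean of 129.3 ± 35.5 (SD, n = 4). The lowest monocyte-like library thus lay above the highest microglia-like library, while the shallow libraries 1 and 2, with 8 and 9 monocyte-like cells, lay highest. Dendritic cell-like cells gave 99.0, 96.3, 72.9 and 105.5 in libraries 2 to 5, where the low value of library 4 came from 6 cells, and MHC class II-high cells 108.5, 85.2, 88.9 and 89.1 in libraries 1, 2, 3 and 5. Both of these overlapped the microglia-like libraries. Neutrophil-like cells gave 93.9, 125.8 and 59.6 in libraries 2, 4 and 5, on both sides of microglia-like cells, and border macrophage-like cells 75.6 and 64.8 in libraries 3 and 5, the former inside and the latter below the microglia-like range.

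**Figure D1:**
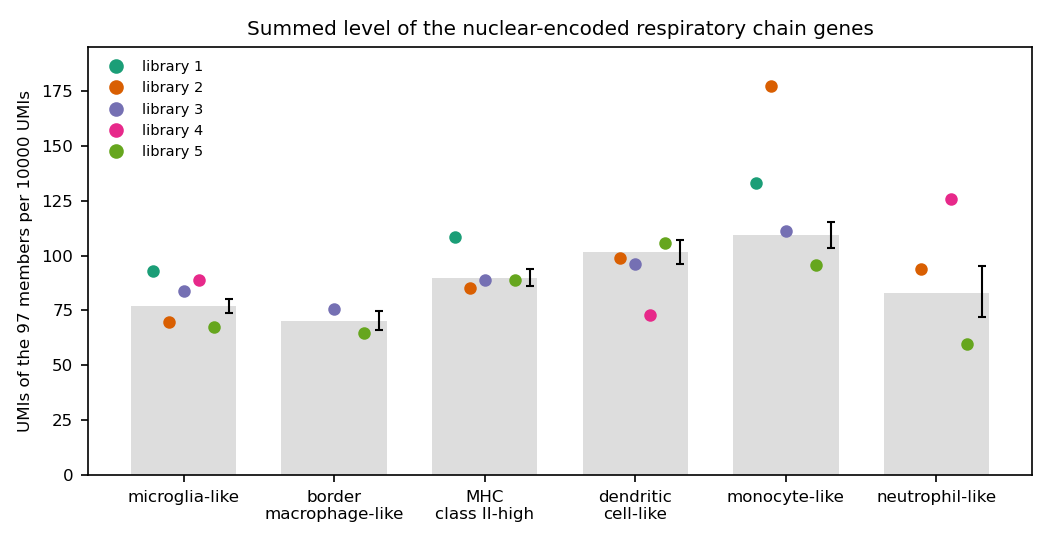
Level of all 97 members in UMIs per 10000 UMIs (vertical axis) in each marker-gated class (horizontal axis), where grey bars give the pooled level with its 95% exact Poisson interval and each point is 1 library with at least 5 cells of the class. The monocyte-like points, from 95.6 to 177.3, lie above all microglia-like points, from 67.5 to 93.0.

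Since the cells of a library were processed on 1 plate, ratios within a library remove differences between plates. The member level of monocyte-like cells was above that of microglia-like cells in 4 of 4 libraries, by ratios from 1.33 to 2.55, and pooled by 1.42. MHC class II-high cells lay above in 4 of 4 libraries (1.06 to 1.32, pooled 1.17), dendritic cell-like cells in 3 of 4 (0.82 to 1.56, pooled 1.32) and neutrophil-like cells in 2 of 3 (0.88 to 1.41, pooled 1.08). Border macrophage-like cells lay below in both libraries, with ratios of 0.90 and 0.96. All of these comparisons use the same microglia-like sums, so they are not independent of each other.

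Complex IV members stood higher in every dendritic cell-like and monocyte-like library than in the microglia-like libraries. Its nuclear-encoded members stood at 18.1, 14.1, 15.7, 15.2 and 13.9 per 10000 UMIs in the microglia-like cells of libraries 1 to 5. Dendritic cell-like cells held 29.3, 23.0, 21.4 and 24.3 in libraries 2 to 5, and monocyte-like cells 20.8, 25.5, 26.8 and 24.1 in libraries 1, 2, 3 and 5. The lowest of these values, at 20.8, thus lay above the highest microglia-like library, at 18.1. Pooled ratios to microglia-like cells were 1.63 for dendritic cell-like cells (1.41 to 2.08 within libraries, above 1 in 4 of 4) and 1.64 for monocyte-like cells (1.15 to 1.81, 4 of 4). Leaving out any 1 of the 18 members in turn left the ratios between 1.57 and 1.71 and between 1.58 and 1.71, so no single subunit carried them. With only cells of at least 1000 UMIs, the pooled ratios were 1.5 and 1.52, in classes whose median depth differs.

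MHC class II-high cells held complex IV members at 16.2, 19.1, 22.3 and 20.4 in libraries 1, 2, 3 and 5, a pooled ratio of 1.40 with 3 of 4 libraries above their own microglia-like cells and library 1 below. Neutrophil-like cells held 20.9, 28.6 and 16.8 (pooled 1.28, 3 of 3 above), and border macrophage-like cells 16.0 in both libraries (pooled 1.04). As a share of all member UMIs, complex IV took 19.5% in microglia-like cells, 22.2% in border macrophage-like cells, 22.5% in monocyte-like cells, 23.2% in neutrophil-like cells, 23.3% in MHC class II-high cells and 24.1% in dendritic cell-like cells. Among the 11 complex IV members with enough counts to be tested, 10 had a positive log2 fold change against microglia-like cells in MHC class II-high cells, in dendritic cell-like cells and in monocyte-like cells, with medians of 0.26, 0.55 and 0.50. Over all 6953 genes tested, the medians of these 3 comparisons were -0.36, -0.54 and -0.38. Those genes were not matched to the members for coverage, and their medians depended on the setting. Over 20 alternatives the all-gene medians ranged from -0.66 to -0.16, from -0.95 to -0.09 and from -0.78 to 0.05. No single complex IV member passed the test in any of the 3 comparisons. Ndufa4, counted here with complex I, was lower at an unadjusted p below 0.05 (edgeR) in MHC class II-high and dendritic cell-like cells.

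The single complex IV members varied more between libraries than their sum. Cox6a1 was at 1.97 per 10000 UMIs in microglia-like cells and 3.57 in dendritic cell-like cells, where libraries 2 to 5 gave 7.33, 2.85, 4.29 and 3.63 against 4.87, 1.91, 0.46 and 1.51 in their microglia-like cells. Each of these 4 libraries was higher in dendritic cell-like cells, though the ranges overlapped. Cox7a2l stood at 3.93 in dendritic cell-like cells, 3.23 in monocyte-like cells and 2.07 in microglia-like cells, and was at 0 in the dendritic cell-like cells of library 4. Cox5b, a subunit near the catalytic core, stood at 2.77, 2.69, 1.89 and 1.65 in the monocyte-like cells of libraries 1, 2, 3 and 5 and at or below 0.92 in all 5 microglia-like libraries.

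**Figure D2:**
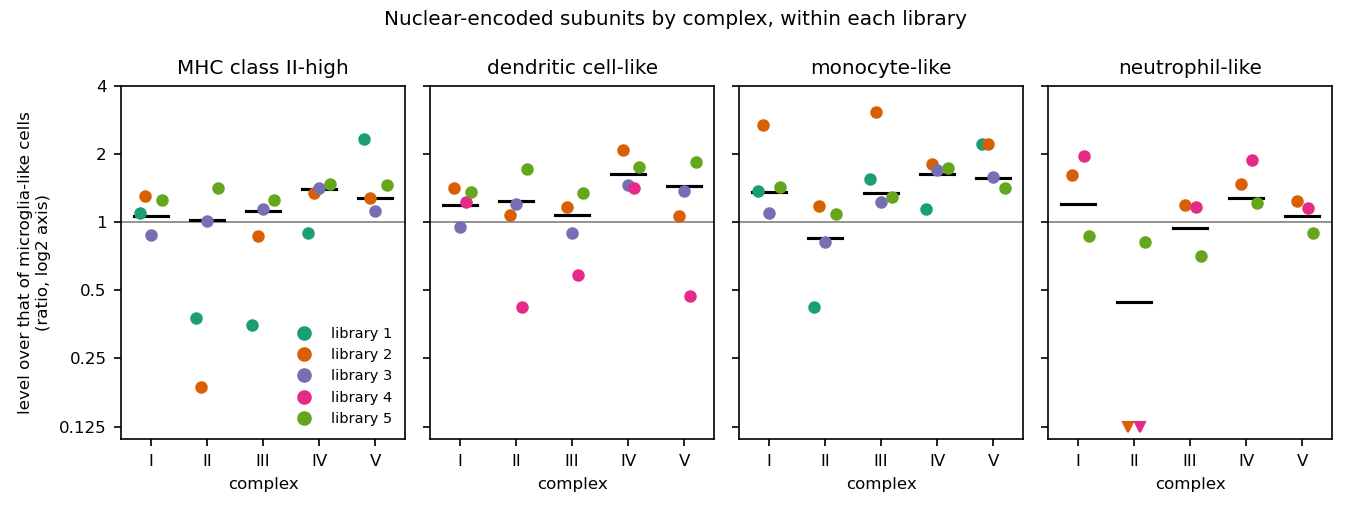
Ratio of the member level to that of microglia-like cells (vertical axis, log2-scaled) for complexes I to V (horizontal axis) in 4 classes, where points are libraries, black lines are the pooled ratio and triangles mark libraries with 0 UMIs. Complex IV lies above 1 in all 4 dendritic cell-like and all 4 monocyte-like libraries, at pooled ratios of 1.63 and 1.64.

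Complex V, the ATP synthase, gave pooled ratios near those of complex IV but spread more. Its members stood at 19.3, 19.96, 20.9, 27.2 and 17.3 per 10000 UMIs in the microglia-like cells of libraries 1 to 5 and at 43.0, 44.3, 33.1 and 24.5 in the monocyte-like cells of libraries 1, 2, 3 and 5. All 4 libraries were higher in monocyte-like cells, with ratios from 1.41 to 2.22 and a pooled ratio of 1.56, although library 5 of the monocyte-like cells lay below library 4 of the microglia-like cells. Dendritic cell-like cells gave 21.3, 28.5, 12.9 and 32.0 in libraries 2 to 5, higher in 3 of 4 libraries and lower in library 4. MHC class II-high cells gave 44.9, 25.4, 23.3 and 25.3, higher in 4 of 4 libraries, with library 1 far above the others. Their pooled ratios were 1.45 and 1.28. Among the 14 members tested, 12 had a positive log2 fold change in monocyte-like cells (median 0.77), 9 in dendritic cell-like cells (median 0.41) and 10 in MHC class II-high cells (median 0.28). Of all genes tested, 39.8%, 34.1% and 36.5% were positive in these comparisons, without matching for coverage.

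Atp5a1, the alpha subunit, stood at 2.23 per 10000 in microglia-like cells and 4.95 in dendritic cell-like cells, while Atp5b, its partner in the catalytic head, stood at 2.99 and 2.26. Atp5e was at 4.16, 9.40, 4.09 and 1.95 in the monocyte-like cells of libraries 1, 2, 3 and 5 and between 0.82 and 2.09 in the microglia-like libraries, with library 5 inside that range. None of these differences of Atp5a1, Atp5b and Atp5e passed the test.

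Complex I members were above microglia-like cells chiefly in monocyte-like cells. The pooled level was 27.3 per 10000 UMIs in microglia-like cells, 24.9 in border macrophage-like, 29.1 in MHC class II-high, 32.6 in dendritic cell-like, 37.1 in monocyte-like and 32.8 in neutrophil-like cells. The monocyte-like ratio was above 1 in 4 of 4 libraries (1.10 to 2.70, pooled 1.36) and the dendritic cell-like ratio in 3 of 4 (pooled 1.19). Of the 36 members tested, 21 had a positive log2 fold change in monocyte-like cells, 16 in dendritic cell-like cells and 14 in MHC class II-high cells. Over all genes tested, not matched for coverage, the positive shares were 39.8%, 34.1% and 36.5% in the same order.

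Complex III members stood at 8.27 per 10000 UMIs in microglia-like cells and 11.1 in monocyte-like cells, above 1 in 4 of 4 libraries (1.23 to 3.07, pooled 1.35). In the other classes the level was between 6.99 and 9.31, with pooled ratios of 0.84 in border macrophage-like, 0.94 in neutrophil-like, 1.07 in dendritic cell-like and 1.13 in MHC class II-high cells. Uqcrh, which gave the highest monocyte-like value of this complex, stood at 13.4 per 10000 in library 2 and at 1.39, 1.89 and 3.31 in libraries 1, 3 and 5, so 1 library set much of its pooled level of 3.4.

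Complex II members were not higher in all monocyte-like libraries. The 4 subunits, which also form succinate dehydrogenase of the tricarboxylic acid cycle, stood at 3.69 per 10000 UMIs in microglia-like cells and 3.15 in monocyte-like cells, a pooled ratio of 0.85, with ratios of 0.42, 1.18, 0.81 and 1.09 in libraries 1, 2, 3 and 5. The pooled ratio was 1.24 in dendritic cell-like, 1.02 in MHC class II-high, 0.81 in border macrophage-like and 0.44 in neutrophil-like cells. In neutrophil-like cells the level was 1.64, all of it from Sdhb. The flavoprotein Sdha and the membrane anchors Sdhc and Sdhd were at 0 there, which at 24413 UMIs allows up to 1.23 per 10000, while Sdha stood at 1.05 and both Sdhc and Sdhd at 0.67 in microglia-like cells. At this depth a difference for Sdha, Sdhc or Sdhd was not detectable.

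Single members were tested on sums of the cells of each class and library, with library as a block, in a fit of all classes by edgeR's quasi-likelihood test. Sums of at least 5 cells entered, 27 in all, and p-values were adjusted by Benjamini-Hochberg over 6953 genes with a threshold of 0.05. Folds are given on the log2 scale with their standard error (SE), against microglia-like cells.

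In border macrophage-like cells, 0 of 79 members were called, beside 0.187% of all genes called higher and 0.115% called lower, and DESeq2 called 0. At an unadjusted p below 0.05 there were also 0, where all genes gave 2.23% higher and 4.36% lower. In MHC class II-high cells 0 of 79 members were called, beside 0.475% of all genes called higher and 1.02% lower. At an unadjusted p below 0.05, 2 members were higher there, Atp5c1 and Ndufa13 at 1.44 and 1.60, and 1 was lower, Ndufa4 at -2.85, where all genes gave 3.09% higher and 7.74% lower. DESeq2 called 0. For all genes called in MHC class II-high cells the split of higher to lower depended on the scaling, 33 to 71 as fitted, 45 to 51 with UMI totals and 25 to 111 with DESeq2 size factors.

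In dendritic cell-like cells, Ndufb11, an accessory subunit of complex I encoded on the X chromosome (chrX:20615326-20617619, GRCm38), was the 1 member called of 79, with 2.3% of all genes called higher and 2.98% lower. It gave 0, 13, 5 and 6 UMIs in libraries 2 to 5, or 0, 2.18, 10.72 and 1.09 per 10000, against 1, 7, 0 and 2 UMIs, or 0.49, 0.61, 0 and 0.15 per 10000, in the microglia-like cells of the same libraries and 0 in library 1. The level was higher in 3 of 4 libraries and the ranges overlapped. The log2 fold change was 2.59 (SE 0.84, adjusted p = 0.0417, edgeR). Without library 4, where 5 UMIs made the highest level, it was 1.45 with an adjusted p of 0.329, and the call was kept in 6 of 20 alternative settings, not among them the fit without the library block. At an unadjusted p below 0.05 the other members were Ndufaf8 and Ndufa4, both lower, where all genes gave 5.44% higher and 12.7% lower. DESeq2 called 1 member higher and 0 lower. Over all genes the split of higher to lower calls was 160 to 207 as fitted, 202 to 171 with UMI totals and 103 to 300 with DESeq2 size factors.

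In monocyte-like cells the member called was Atp5h, subunit d of the ATP synthase's peripheral stalk (chr11:115415689-115419962, GRCm38), 1 of 79 beside 1.14% of all genes called higher and 1.24% lower. It gave 9, 8, 20 and 16 UMIs in libraries 1, 2, 3 and 5, or 12.48, 10.75, 6.30 and 2.41 per 10000. The microglia-like cells of libraries 1 to 5 gave 6, 5, 20, 2 and 20 UMIs, or 2.47, 2.43, 1.74, 0.92 and 1.51 per 10000. All 4 libraries were higher in monocyte-like cells, though library 5 lay just below the highest microglia-like value.

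The log2 fold change of Atp5h was 1.89 (SE 0.58, adjusted p = 0.0473, edgeR). The 57 UMIs came from 26 cells, with at most 6 in a cell. Leaving out any 1 of the 5 libraries ended the call (adjusted p from 0.124 to 0.285, edgeR), and it was kept in 4 of 20 alternative settings, not among them the fit without the library block. DESeq2 called 2 members higher and 0 lower. At an unadjusted p below 0.05, 5 members were higher and 0 lower, where all genes gave 5.05% higher and 9.51% lower. Besides Atp5h these were the complex I members Ndufb11 at 2.65, Ndufa6 at 1.81 and Ndufb5, and Uqcrfs1, the Rieske protein of complex III, at 2.12. Ndufa6 stood at 12.48, 4.03, 5.35 and 3.31 per 10000 in the monocyte-like libraries and at 0.41, 0, 2.17, 1.84 and 1.51 in the microglia-like libraries, which did not overlap. Ndufb11 and Ndufa6 had adjusted p-values of 0.0678 and 0.0836. Over all genes the split of higher to lower calls was 79 to 86 as fitted and 46 to 113 with trimmed-mean factors over all genes.

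**Figure D3:**
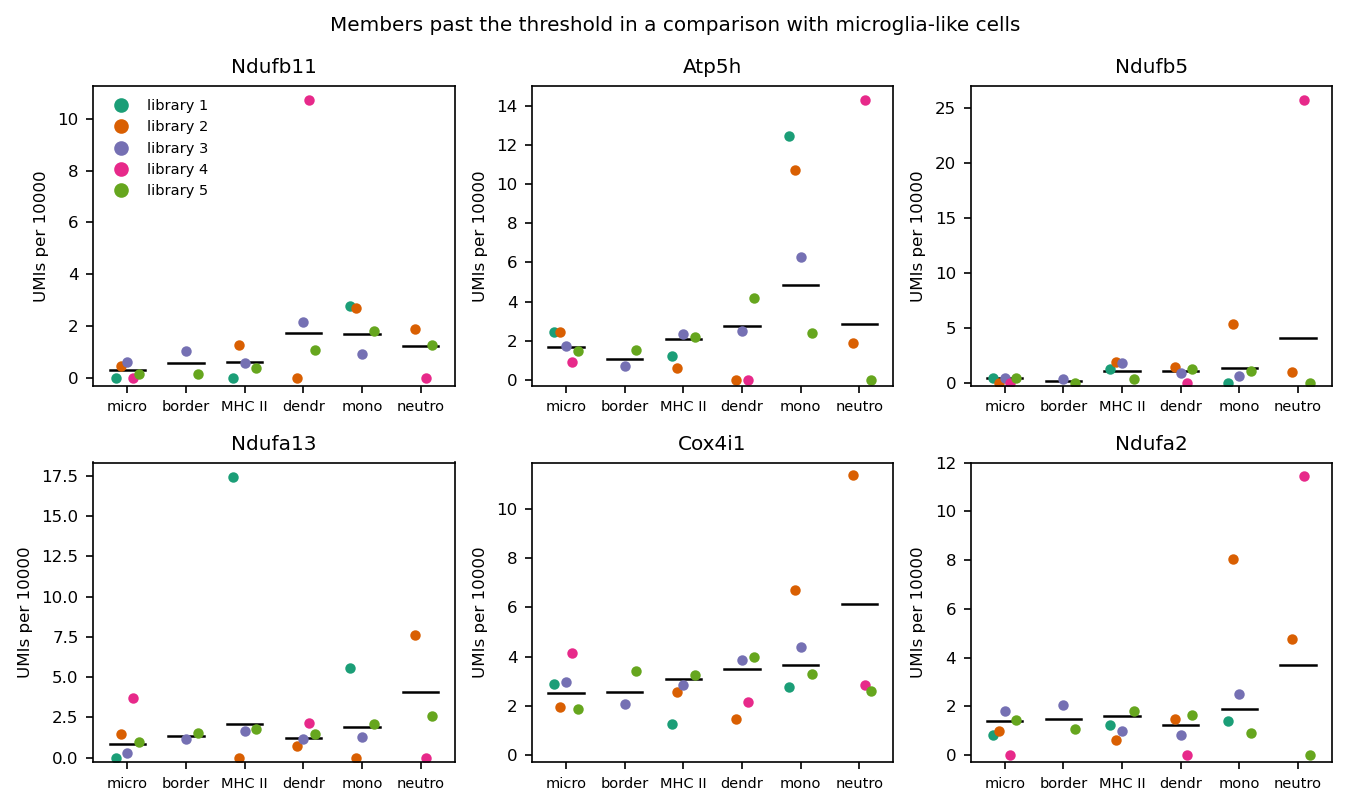
Level in UMIs per 10000 UMIs (vertical axis) of the 6 members called in a comparison, in each of 6 classes (horizontal axis), where points are libraries and black lines the pooled level. Atp5h lies higher in monocyte-like than in microglia-like cells in each of 4 libraries, while Ndufb5 in neutrophil-like cells rests on library 4 at 25.7.

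Neutrophil-like cells, 30 cells in 3 libraries, gave the most called members, 4 of 79 higher and 0 lower, where 2.78% of all genes were called higher and 0.388% lower. At an unadjusted p below 0.05, 14 members were higher and 1 was lower, where all genes gave 7.61% and 1.83%, and DESeq2 called 11 higher and 0 lower. The 4 called members rested on few cells, between 3 and 5 for each. Ndufb5, an accessory subunit of complex I (chr3:32736990-32751566, GRCm38), gave 1, 9 and 0 UMIs in libraries 2, 4 and 5, or 0.95, 25.7 and 0 per 10000, against levels up to 0.45 in the microglia-like libraries. Its log2 fold change was 4.58 (SE 1.03, adjusted p = 0.000675, edgeR), and 3 cells held its 10 UMIs. Without library 4 it was 1.19 with an adjusted p of 0.80, and without the cells that pass more than 1 marker list it turned to -4.27 with an adjusted p of 0.831.

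Ndufa13, also known as Grim19, gave 8, 0 and 2 UMIs in libraries 2, 4 and 5, or 7.59, 0 and 2.59 per 10000, against 0, 1.46, 0.26, 3.69 and 0.98 in the microglia-like libraries, which overlapped. Its log2 fold change was 3.35 (SE 0.87, adjusted p = 0.00651, edgeR) and fell to 1.29 (adjusted p = 0.818) without library 2. Cox4i1 gave 12, 1 and 2 UMIs, or 11.4, 2.86 and 2.59 per 10000, against 2.88, 1.95, 2.96, 4.15 and 1.88, so that only library 2 lay above the microglia-like range. Its log2 fold change was 2.32 (SE 0.68, adjusted p = 0.0239) and 0.88 without library 2 (adjusted p = 0.818). Both genes overlap another gene on the same strand in the GENCODE annotation, Yjefn3 and Gm20388.

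Ndufa2, an accessory subunit of complex I, gave 5, 4 and 0 UMIs in the same 3 libraries, or 4.74, 11.4 and 0 per 10000, against levels up to 1.83 in the microglia-like libraries. Its log2 fold change was 3.05 (SE 0.94, adjusted p = 0.0389, edgeR) and 1.80 without library 4 (adjusted p = 0.80). In the opposite direction, Atp5b was at 0 in all 3 neutrophil-like libraries, an upper limit of 1.23 per 10000 over 24413 UMIs, and between 1.84 and 4.94 in the 5 microglia-like libraries. Its adjusted p passed the threshold only with trimmed-mean factors over all genes (adjusted p = 0.0205).

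The neutrophil-like results depended on the scale. Gate markers took 35.8% of all UMIs in these cells and between 3.37% and 5.65% in the other gated classes, which lowers the level of every other gene per 10000. Leaving these markers out of the total raised the member level from 83.2 to 129.6. Of the genes called in this comparison, 193 were higher and 27 lower as fitted, 90 and 113 with UMI totals, and 54 and 248 with trimmed-mean factors over all genes. With that last scaling 0 members were called higher, and with UMI totals 1.

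The 13 protein-coding genes of the mitochondrial genome ranked the classes differently from the nuclear-encoded members when pooled. The 13 mitochondrially encoded subunits summed to 199.2 per 10000 UMIs in microglia-like cells, 207.1 in border macrophage-like, 160.9 in MHC class II-high, 159.1 in monocyte-like, 137.6 in dendritic cell-like and 49.97 in neutrophil-like cells. All genes with mt- symbols, of which these 13 are part, took 8.38% of UMIs in microglia-like cells. They took 9.35% in dendritic cell-like, 10.1% in MHC class II-high, 11.4% in monocyte-like, 11.6% in border macrophage-like and 5.07% in neutrophil-like cells. In dendritic cell-like, MHC class II-high and monocyte-like cells their direction was thus opposite to that of the 13 genes. Within libraries the level of the 13 genes was below that of microglia-like cells in 3 of 3 neutrophil-like, 4 of 4 dendritic cell-like and 3 of 4 MHC class II-high libraries. Monocyte-like cells were split, with ratios of 1.24 and 1.39 in libraries 1 and 2, where the nuclear-encoded members also stood highest, and 0.71 and 0.77 in libraries 3 and 5. The ratio of nuclear-encoded UMIs to those of the 13 mitochondrially encoded genes, which does not depend on the total, was 0.340 in border macrophage-like, 0.387 in microglia-like, 0.559 in MHC class II-high, 0.687 in monocyte-like, 0.737 in dendritic cell-like and 1.66 in neutrophil-like cells.

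By library this ratio was 0.29, 0.34, 0.44, 0.29 and 0.40 in microglia-like cells and 2.11, 1.38 and 1.24 in neutrophil-like cells of libraries 2, 4 and 5, with no overlap. Monocyte-like cells gave 0.34, 0.63, 0.83 and 0.74, and dendritic cell-like cells 0.56, 0.65, 0.35 and 0.99, each higher than microglia-like cells of the same library in 4 of 4 libraries, with 1 library in each class inside the microglia-like range. MHC class II-high cells gave 0.51, 0.42, 0.57 and 0.57, higher in 4 of 4 libraries. For complex IV alone, with 3 mitochondrially encoded subunits, the ratio was 0.670 in microglia-like cells, 0.980 in monocyte-like, 1.14 in dendritic cell-like and 1.62 in neutrophil-like cells, and for complex I it was 0.215, 0.362, 0.388 and 1.33. Mitochondrially encoded counts were uneven, with 2178 UMIs of mt-Co1, 330 of mt-Co2 and 208 of mt-Co3 in all kept cells. Ratios can therefore be read between classes and not between complexes.

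**Figure D4:**
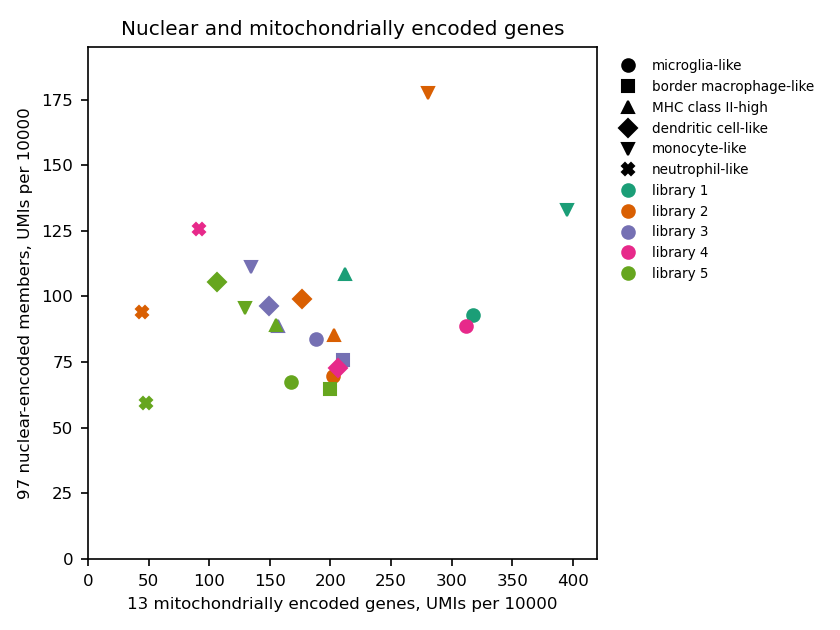
Level of the 97 nuclear-encoded members (vertical axis, UMIs per 10000) against that of the 13 mitochondrially encoded genes (horizontal axis, UMIs per 10000), with 1 point per class and library, the shape giving the class and the color the library. Neutrophil-like points lie at the left, from 44.6 to 91.5 mitochondrially encoded UMIs per 10000, and microglia-like points from 168 to 318.

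Among the 9 mitochondrially encoded genes tested, mt-Cytb (cytochrome b of complex III) and mt-Nd4 (a core subunit of complex I) were lower in dendritic cell-like cells, at log2 fold changes of -0.91 and -0.81 (adjusted p = 0.0194 and 0.0424, edgeR). In neutrophil-like cells mt-Nd4 and mt-Nd2 were lower, at -1.93 and -2.18 (adjusted p = 0.000325 and 0.0262). mt-Nd4 stood at 44.3 per 10000 UMIs in microglia-like cells, 29.8 in dendritic cell-like and 6.96 in neutrophil-like cells. The calls were kept in 15 of 19 alternative settings for mt-Cytb and 10 of 19 for mt-Nd4 in dendritic cell-like cells, and in 17 of 18 and 10 of 18 for mt-Nd4 and mt-Nd2 in neutrophil-like cells. In border macrophage-like, MHC class II-high and monocyte-like cells 0 of 9 were called.

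The other pathway lists gave few calls. Of 19 genes of the tricarboxylic acid cycle tested, led by Idh3g, Mdh2, Mpc2 and Cs, 0 were called in any of the 5 comparisons. The same held for 11 assembly factors outside the name rule, led by Cox16, Coa5, Cox17 and Cox20, for 9 further subunits and carriers, led by Ucp2, 2010107E04Rik, Atpif1 and Cyc1, and for 6 regulators of mitochondrial genes. Summed over all 15 genes of their list, tested or not, the regulators stood at 5.12 per 10000 UMIs in microglia-like cells and between 0.41 and 4.17 in the other gated classes, with Yy1, Hif1a, Tfam and Gabpa the best covered. The low end was 1 UMI in neutrophil-like cells.

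Of 18 glycolysis genes tested, Ldhb, the lactate dehydrogenase subunit known from oxidative tissues, was lower than in microglia-like cells in 3 comparisons. It stood at 2.39 per 10000 UMIs in microglia-like cells, 0.36 in dendritic cell-like, 0.08 in MHC class II-high and 0.09 in monocyte-like cells, with log2 fold changes of -2.78, -4.39 and -4.27 (adjusted p = 0.0279, 0.000426 and 0.00756, edgeR). These calls were kept in 16, 18 and 18 of 20 alternative settings. Ldhb was not called in the other 2 classes, though it stood at 0.21 in border macrophage-like cells. In neutrophil-like cells it was at 0, an upper limit of 1.23 per 10000. Pfkl, the liver-type phosphofructokinase, was lower in dendritic cell-like cells at -4.67 (adjusted p = 0.0441, kept in 8 of 17).

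In neutrophil-like cells, Pkm (pyruvate kinase) and Aldoa (aldolase) were higher, at 3.84 and 3.82 (adjusted p = 1.35e-07 and 0.000133, edgeR), and the glycolysis list summed to 38.5 per 10000 UMIs against 16.2 in microglia-like cells. Of 21 mitochondrial ribosomal proteins tested, Mrpl33 and Mrpl41 were higher in neutrophil-like cells, at 3.77 and 4.66 (adjusted p = 0.000152 and 0.0403), and 0 were called elsewhere. Pkm, Aldoa and Mrpl33 kept their calls in 18, 17 and 16 of 19 alternative settings, whereas Mrpl41, with 6 UMIs in these cells, kept it in 7 of 15.

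**Figure D5:**
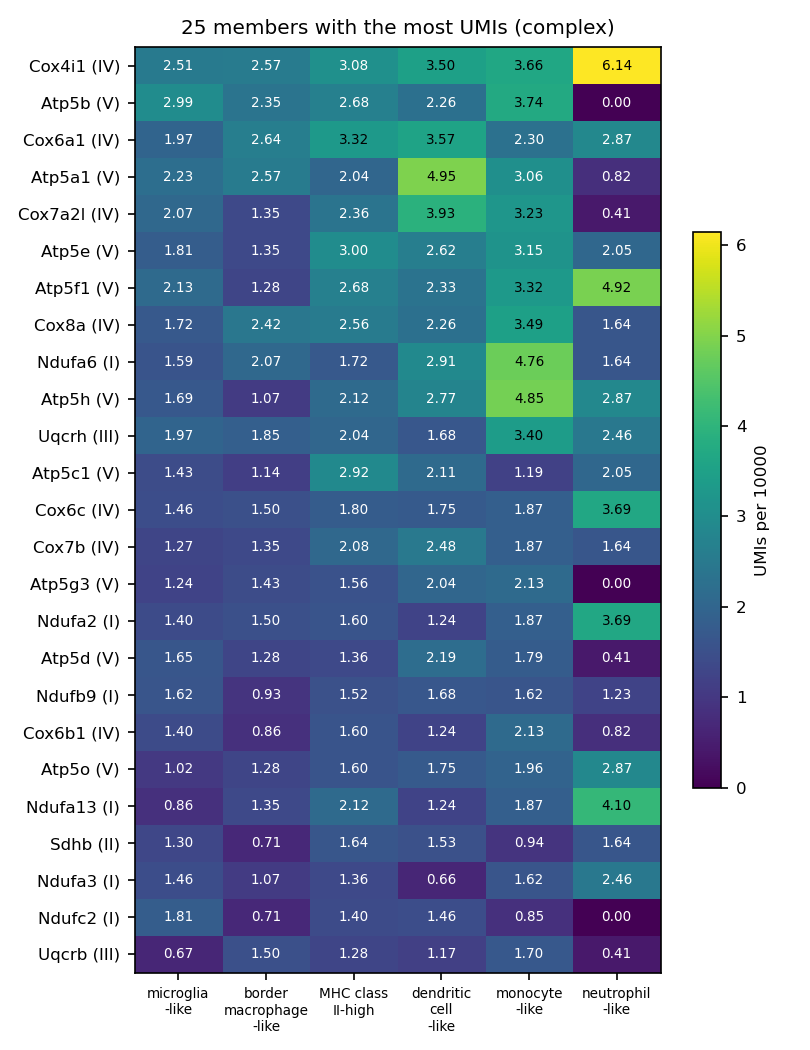
Level in UMIs per 10000 UMIs, as color and printed value, of the 25 members with the most UMIs (vertical axis, complex in brackets) pooled in each marker-gated class (horizontal axis). Cox4i1 stands at 2.51 in microglia-like cells and 6.14 in neutrophil-like cells, while Atp5b, Atp5g3 and Ndufc2 are at 0 in neutrophil-like cells.

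Within microglia-like cells, those with at least 40 UMIs per 10000 of an activated microglia list were compared with the others. The 18 activated cells held members at 95.7 per 10000 (95% exact Poisson interval 83.0 to 109.7) and the 240 others at 75.7 (72.5 to 78.9). Only 1 library held at least 5 such cells, so a test against the others rests on 1 activated sum assumed to vary like the other sums. With ungated cells above the same threshold counted in, 46 cells from 5 libraries held 89.4 (82.0 to 97.4). In this wider comparison 0 of 79 members were called by edgeR, beside 0.244% of all genes, and 3 were higher and 3 lower at an unadjusted p below 0.05. In the narrower one 0 of 79 were called, beside 0.0289% of all genes, and 2 were higher at an unadjusted p below 0.05.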

How the data were processed

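MARS-seq libraries of CD45high CD11bhigh cells from DM-hTAU mice, all labelled aPDL1, were analysed from the deposited UMI count tables, 1 per plate, which hold counts per gene and well as the authors made them, not normalized. The submitters' notes name bcl2fastq 2.15.0.4 and build mm10, with no aligner given in the sources. Spike-in (ERCC) rows were left out of all totals. Wells with 1 cell and at least 500 UMIs were kept. Library totals ranged from 134201 to 549824 UMIs. All libraries share 384 cell barcodes by plate design and 0 well identifiers. Doublets were excluded in the sort and no caller was run.

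Members, marker and pathway lists and gates were chosen with earlier results of these data known. Classes were gated on summed markers per 10000 UMIs, with at least 2 marker UMIs: neutrophils first, then the largest ratio to its threshold among microglia, border macrophage, monocyte and dendritic cell lists, then MHC class II. Passing more than 1 list was counted over the microglia, border macrophage, monocyte and dendritic cell lists only. Of the 6 gated classes, 17, 20, 0, 14, 14 and 6 cells (microglia-like, border macrophage-like, MHC class II-high, dendritic cell-like, monocyte-like and neutrophil-like) passed more than 1 of these. The 0 for MHC class II-high cells follows from the gate. Cells that also passed the MHC class II threshold were not counted, and the median dendritic cell-like cell held 451 MHC class II UMIs per 10000. Coordinates of genes are GENCODE M21 (GRCm38), where 95 members matched.

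Sums per class and library were fitted with edgeR 4.0.16 (R 4.3.3; quasi-likelihood, robust) with class and library as terms, since both sums of a library come from 1 plate, leaving 16 residual degrees of freedom. Genes with at least 20 UMIs over the sums were tested. Scaling used trimmed-mean (TMM) factors from 264 genes with at least 500 UMIs, a choice made after factors over all genes shifted unchanged genes in simulated data. In simulated data for monocyte-like against microglia-like cells (6851 genes), 43 of 100 genes changed 4-fold and 2 of 100 changed 2-fold were called. The changed genes were drawn from those with at least 100 UMIs, at a fixed dispersion of 0.1 and without a library effect. Of the members, 42 had at least 100 UMIs in the kept cells. Named genes were the 25 members with the most UMIs, all called members, all genes of multi-gene subunits and, of each pathway list, up to 4 with the most UMIs and those called. Others named were chosen after their values were seen. DESeq2 1.42.0, other scalings, filters, gates, denominators and the removal of each library were alternatives. Those chosen after seeing the data were UMI totals, TMM over all genes, removal of cells passing more than 1 list, a total without gate markers alone, and ungated cells counted as activated. Gm genes are the abundant Gm42418 and Gm26917. Other steps used Python 3.11.15, numpy 2.4.6, pandas 2.3.3, scipy 1.17.1 and matplotlib 3.10.9.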

Additional observations from a re-analysis of the deposited data

Results flagged for a closer look

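Groups of 4 or 5 libraries were searched for a library far from the others by the gap to its nearest neighbour relative to the range, in 24 groups of a complex and a class. Chance flags about 1 in 20 such groups. In MHC class II-high cells, library 1 stood apart with 108.5 member UMIs per 10000, where the other 3 libraries lay between 85.2 and 89.1. The same library stood apart for complex V, at 44.9 per 10000 where the others lay between 23.3 and 25.4. It held 12 MHC class II-high cells.

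Wells with a cell and fewer than 500 UMIs were in no comparison. In these 1075 wells the members stood at 85.5 per 10000 UMIs (95% exact Poisson interval 82.0 to 89.1, 2257 of 264092 UMIs). The 20 wells without a cell gave 2 member UMIs of 320, or 62.5 per 10000 (7.57 to 225.8), an interval that holds the level of the shallow wells.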

How the results depend on the processing

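The counts of called members changed with most settings. Of 79 members, the 1 called higher in dendritic cell-like cells became 0 with TMM over all genes, DESeq2 size factors in edgeR, a looser or stricter gate, a minimum of 10 UMIs over the sums or 1000 UMIs per cell, no filter, no replicate block, without cells that pass more than 1 list and without marker, mitochondrial and Gm genes. Leaving out a library gave 0 to 1. The 1 called in monocyte-like cells became 0 under the same settings and 0 to 0 on leaving out a library, and 2 with DESeq2, a minimum of 50 UMIs or only the 2 classes in the fit. The 4 called higher in neutrophil-like cells became 11 with DESeq2, 7 with DESeq2 size factors or a minimum of 50 UMIs, 2 with no filter or a stricter gate, 1 with UMI totals, 0 with TMM over all genes or only the 2 classes, and 1 to 6 on leaving out a library. The members tested also changed with the setting, and the fit of only the 2 classes tested 26 members in neutrophil-like cells. TMM over all genes called 1 member lower there, against 0. Without the replicate block, 0, 0, 0, 0 and 6 members were called in border macrophage-like, MHC class II-high, dendritic cell-like, monocyte-like and neutrophil-like cells. The cause was not tested.

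Counts of all called genes, over all alternatives, ranged from 0 to 167 in border macrophage-like cells (21 as fitted), 26 to 209 in MHC class II-high (104), 78 to 534 in dendritic cell-like (367), 39 to 263 in monocyte-like (165) and 66 to 340 in neutrophil-like cells (220). The lowest counts came without library 3 for border macrophage-like cells, without library 3 or library 5 (26 each) for MHC class II-high cells, without library 5 for dendritic cell-like and monocyte-like cells, and with only the 2 classes in the fit for neutrophil-like cells. That last fit tested 1536 genes. The median log2 fold change of all genes shifted from -0.38 to -0.57 in monocyte-like cells with TMM over all genes. Ndufb5 in neutrophil-like cells turned to -4.27 without cells that pass more than 1 list.

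Leaving mitochondrial, Gm and marker genes out of the total gave member levels of 96.3, 92.8, 119.9, 132.1, 145.1 and 163.5 per 10000 in microglia-like, border macrophage-like, MHC class II-high, dendritic cell-like, monocyte-like and neutrophil-like cells, and leaving out marker genes alone gave 129.6 in neutrophil-like cells. By construction a smaller total raises a level. The neutrophil-like ratio to microglia-like cells was then 1.70 and 1.63, and over 13 alternatives it ranged from 0.80 to 1.70. The border macrophage-like ratio of all members was 0.99 with at least 1000 UMIs per cell, 0.96 with the smaller total and 0.85 as a mean over cells. With at least 1000 UMIs per cell, the complex I ratio of border macrophage-like cells turned to 1.06 and the complex II ratio of neutrophil-like cells to 1.22. The complex IV ratio stayed above 1 in 13 of 13 alternatives in MHC class II-high, dendritic cell-like, monocyte-like and neutrophil-like cells, and the complex V ratio in the first 3 of these.

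With 1000 UMIs per cell the neutrophil-like test could not be fitted, nor the activated one without library 3. Depth limits single members, most of which were seen as 1 UMI per cell. In simulated data, 2 of 100 genes changed 2-fold were called in monocyte-like cells, all drawn from genes with at least 100 UMIs.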

Other observations

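Ungated cells, which passed no marker threshold, were fitted with the other classes but compared only where those with activated markers were counted in. The 110 cells held members at 84.7 per 10000 UMIs, with a ratio of nuclear-encoded to mitochondrially encoded UMIs of 0.418. Complex I members stood at 28.7 per 10000 there. The activated microglia list stood at 47.5 per 10000 in these cells, against 15.2 in microglia-like cells, and 28 of them reached the activated threshold, with a member level of 85.9 (95% exact Poisson interval 76.7 to 95.8).

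Ndufa13 and Atp5f1 were high in the MHC class II-high cells of library 1, the library that stood apart for that class. Ndufa13 stood at 17.5 per 10000 there with 14 UMIs, and Atp5f1 at 13.7, while the other 3 libraries gave Atp5f1 levels between 0.64 and 2.85. Both genes were picked here after their values were seen.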
